A study of Mus musculus with 6 samples.

Results

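Heat shock proteins and cytosolic chaperones were followed as a set of 38 genes, listed by symbol, in cultured mouse muscle satellite cells. The cells received a recombinant protein or its control. The list was drawn up with earlier results of these data known. All 38 were found among the 27179 genes of the count table, and all 38 passed the filter on low counts that left 13769 genes for testing. By role the set holds 2 heat shock transcription factors, 8 HSP70 genes, 3 HSP110 genes, 3 HSP90 genes, the mitochondrial chaperonin and its lid (2 genes), 7 small heat shock proteins, 7 J-domain co-chaperones and 6 other co-chaperones. A few members work outside the cytosol, among them Hspa9, Trap1, Hspd1 and Hspe1 in mitochondria.

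The cells were primary satellite cells, which are the resident stem cells of muscle fibres, taken from hindlimb muscle of wild-type C57BL/6 mice. The labels describe them as ageing and give no age. Both groups grew in DMEM with 20% fetal bovine serum and basic fibroblast growth factor. One group received recombinant human MG53 (rhMG53) and the control group bovine serum albumin (BSA), each for 72 h, with 3 libraries per group, all labelled day 3. MG53, a protein of the TRIM family found in striated muscle, is known for its part in plasma membrane repair. Which animal or culture each library came from is not stated, so the tests weigh differences only against variation among these 6 libraries, which may be technical. The comparison asks whether the added protein altered transcript levels.

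Chaperones bind unfolded or partly folded proteins, keep them from aggregating and help them fold. HSP70 works in cycles of ATP hydrolysis that J-domain proteins start and nucleotide exchange factors (the HSP110 and BAG proteins) reset, and HSP90 takes over many of its clients. Under heat, oxidants or misfolded protein, the transcription factor HSF1 binds heat shock elements, repeats of the 3 bases GAA and its complement TTC, and induces a core of these genes. In skeletal muscle, small heat shock proteins such as αB-crystallin sit at the Z-disc and on desmin filaments, and UNC45B folds myosin.

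Library totals ran from 17374151 to 22738745 counts, and the 38 genes together took 1.16% to 1.22% of them. Their lowest count in any library was 188, for Hspa1l, and the highest 58951, for Hsp90ab1. Markers of satellite cells were mixed in level, and differentiated muscle markers were high in both groups. The 8 satellite cell markers summed to 2270 to 2326 CPM with BSA and 2137 to 2243 CPM with rhMG53, most of it from the adhesion genes Itga7 (1729 CPM) and Cdh15 (405.6 CPM), which differentiating muscle cells also express. Pax7 averaged 9.23 CPM (counts scaled by library size) over all libraries, and Calcr, another marker of the stem cell state, was at 0.0523 CPM. The 14 muscle markers summed to between 63190 and 66048 CPM with BSA and between 60098 and 67142 CPM with rhMG53. The 8 markers of fibro-adipogenic cells summed to 767.3 to 879.8 CPM and 794.6 to 865.7 CPM, most of it from Col3a1 (433.7 CPM) and Gsn (330.7 CPM). Of the others, Pdgfra, Dpt, Dcn and Ly6a averaged between 8.56 and 21.85 CPM, Lum 0.19 and Pi16 0.16. The 7 endothelial markers stayed under 2.5 CPM in sum. The 7 leukocyte markers summed to 6.87 to 8.05 CPM with BSA and 7.25 to 11.5 CPM with rhMG53. The highest sum was that of rhMG53 replicate 2, where Lyz2 was at 4.06 CPM, against 0.559 to 0.857 CPM in the other libraries. The 6 mural cell markers summed to 180.8 to 214.8 CPM and 166.4 to 209.2 CPM, most of it from Abcc9 (127.3 CPM). Cspg4 averaged 34.1 CPM, Notch3 32.5, Myh11 0.44 and Rgs5 0.09, with Kcnj8 at 0 in every library. The 5 Schwann cell markers were nearly all Ncam1, which muscle also expresses (1614 to 1819 CPM in sum). Their part in the results was not tested. In bulk RNA, fewer cells of a type and less RNA per cell cannot be told apart.

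Members were set against each other on 1 scale, CPM per kilobase of all annotated exons of the gene, since long transcripts yield more reads. Hsp90ab1, the constitutive cytosolic HSP90, had the highest level, 874.3 CPM per kilobase over the 6 libraries. Hspa8, the constitutive HSP70 (HSC70), followed at 526.3, Cryab (αB-crystallin) at 427.9 and Hspb8, a small heat shock protein that works with the co-chaperone BAG3, at 337.7. The ranges of these first 4 over the libraries did not overlap with their neighbours in the order. Bag1 (203.2), Hspb1 (196.2), Hspb7 (183.3), Hspb2, Hspa9 (153.1) and Stip1 (143.3) came next, and among these 6 each range overlapped with that of its neighbour. Of the 10 highest members, 5 were therefore small heat shock proteins.

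**Figure D1:**
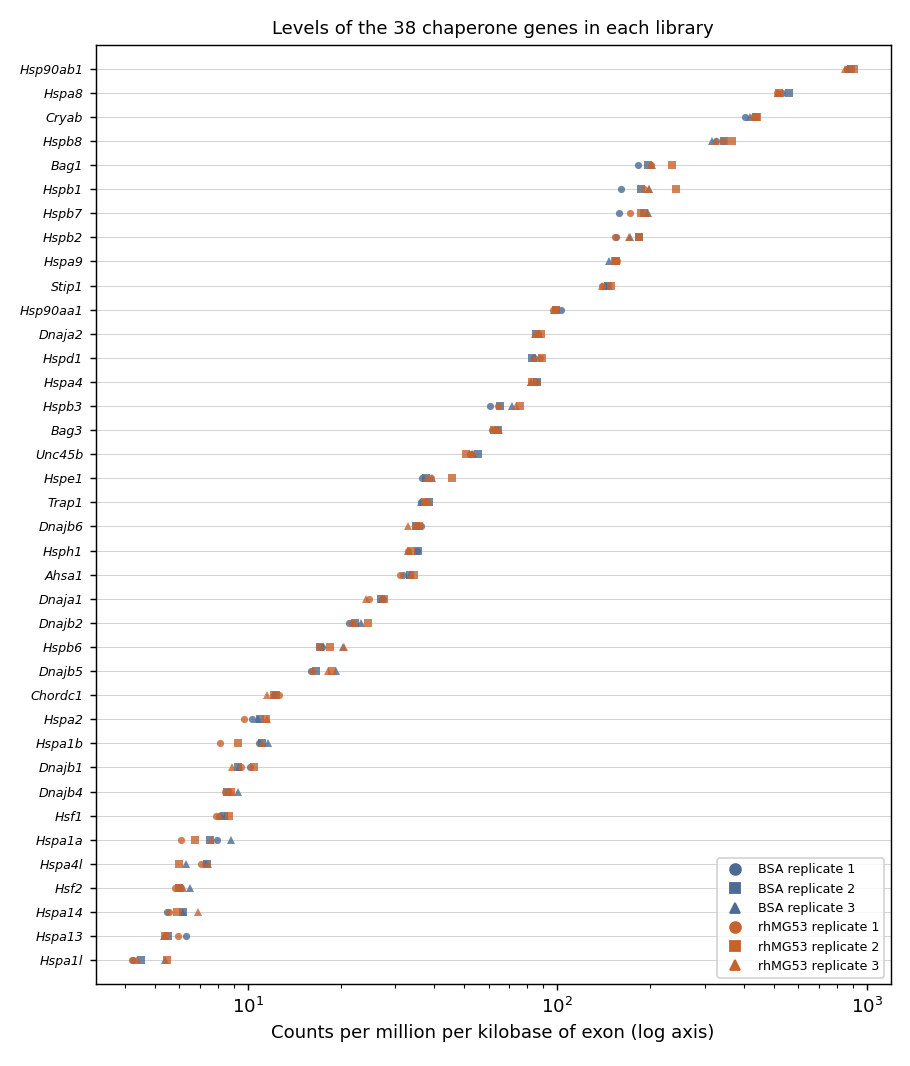
Level of each of the 38 genes in CPM per kilobase of exon (log axis), 1 point per library, BSA and rhMG53 in separate colours, ordered by the mean over the 6 libraries. Hsp90ab1 stands highest at 874.3 and Hspa1l lowest at 4.71, and in most genes the points of both groups lie on top of each other.

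Some stress-inducible members stood at the low end of the same scale. Hspa1b was at 10.4 CPM per kilobase, Dnajb1, the J-domain partner of inducible HSP70, at 9.62, and Hspa1a at 7.47. Other heat-inducible genes stood higher, with Hsp90aa1 at 98.9, Bag3 at 63.4 and Hsph1 at 33.9. The transcription factor genes Hsf1 (8.26) and Hsf2 (6.11) were in the same range, and Hspa1l, an HSP70 gene known from testis, was lowest at 4.71. From rank 28 (Hspa2, 10.8 CPM per kilobase) down to rank 38, every gene's range overlapped with that of the next. Hspa8 exceeded the sum of Hspa1a and Hspa1b by 27.9 ± 2.51 times with BSA and 32.0 ± 4.17 times with rhMG53, per kilobase (SD, n = 3 each). Hsp90ab1 exceeded its inducible paralog Hsp90aa1 by 8.78 ± 0.300 and 8.91 ± 0.291 times. With the longest coding transcript as the length, an alternative chosen after seeing the data, the same 10 genes stood highest and Hspa1l lowest. The Hspa8 ratio was then 50.1 ± 4.51 and 57.5 ± 7.50 times, and Hsf1 (27.9) and Hsf2 (22.5) stood above Hspa1b (10.4), Dnajb1 (10.3) and Hspa1a (7.47), with ranges that did not overlap.

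Reads that fit more than 1 gene limit some of these levels. Of all 75-base stretches of the Hspa1a transcript, 52.7% occur also in Hspa1b, and 55.8% of those of Hspa1b occur in Hspa1a. For Hspa1l 71.1% occur in other annotated transcripts, for Hspa8 68.6%, for Hsp90aa1 53.1% and for Hspb1 47.3%, here the pseudogene Hsp25-ps1. In all, 14 members share over 10% of such stretches and 19 share none. How the authors counted reads of this kind is not given in the sources used here, so the levels of those 14 genes are uncertain. Hspb2 lies within the RefSeq span of Cryab on the opposite strand, and Hspd1 and Hspe1 overlap at their first exons on opposite strands. The strand setting of the counting is not given either, so reads of these pairs may not have been kept apart.

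The promoters were searched for heat shock elements, and stretches that hold them are shown because HSF1 acts through these letters. The windows come from RefSeq on GRCm38.p6, the assembly of mm10, and run from 250 bases before a transcription start to 50 after it. An entry was matched for 30 of the 38 members. Hsf1, Hspa8, Hspa9, Hspa13, Hsp90aa1, Hsp90ab1, Hspb2 and Cryab were not matched. The motifs searched were GAANNTTC and TTCNNGAA (2 units each) and GAANNTTCNNGAA or TTCNNGAANNTTC (3 units). GAANNTTC and TTCNNGAA read the same on both strands, the 3-unit forms are each other's reverse complement, and every 3-unit match contains both 2-unit motifs. The stretches below are written 5′ to 3′ on the gene's strand, with the GAA and TTC units of a match in capitals. Hspb1, Dnajb6 and Chordc1 were added to this selection after the search and their values were seen.
Hspa1a, chr17:34972237-34972326, minus strand, upstream of the start: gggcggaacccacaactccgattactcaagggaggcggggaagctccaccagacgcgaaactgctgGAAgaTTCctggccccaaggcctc
Hspb1, chr5:135887769-135887858, plus strand, upstream of the start: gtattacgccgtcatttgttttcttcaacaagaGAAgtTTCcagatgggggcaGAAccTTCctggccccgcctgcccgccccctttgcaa
Dnajb6, chr5:29735818-29735897, plus strand, upstream of the start: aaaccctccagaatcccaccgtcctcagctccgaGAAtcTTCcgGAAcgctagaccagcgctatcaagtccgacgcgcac
Hspe1, chr1:55088052-55088081, plus strand, between the Hspd1 and Hspe1 starts used for their windows: cggtccgTTCtaGAAccTTCcgGAAggccc
Hsph1, chr5:149636287-149636316, minus strand, just after the start: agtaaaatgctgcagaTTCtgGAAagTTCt
Chordc1, chr9:18292259-18292288, plus strand, across the start: accgGAAcgTTCggGAAaaTTCctGAAgca
Bag3, chr7:128523603-128523632, plus strand, just after the start: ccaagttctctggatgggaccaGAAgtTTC

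The Hspb1 stretch holds 2 separate 2-unit matches, the Hspe1 stretch 4 units in a row and the Chordc1 stretch 5 in a row. The stretch of Hspa1b at chr17:34959319-34959408 has the same letters as that of Hspa1a at 90 of 90 positions, and the full windows of the pair are identical at 296 of 300. The 3-unit motif was present in 5 of 30 members (16.7%), namely Chordc1, Dnajb6, Hspd1, Hspe1 and Hsph1, against 0.662% of all 27025 genes with a window. The windows of Hspd1 and Hspe1 overlap, and both genes count the same letters, read on opposite strands. Either 2-unit motif was present in 14 of 30 (46.7%) against 17% of all genes. These 14 include Hspd1 with Hspe1 and the near-identical windows of Hspa1a and Hspa1b, so the genes are not separate sites throughout. A match is a description of letters and not of binding. The 5 members with 3 units had log2 fold changes, rhMG53 over BSA, from -0.069 to 0.098 with a median of -0.026, and the 25 without had a median of -0.0095. The 14 members with either 2-unit motif had 6 positive and 8 negative values, and the 16 without had 7 and 9.

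No member passed the test between rhMG53 and BSA. In edgeR's quasi-likelihood test 0 of 38 had an adjusted p under 0.05, against 3 of 13769 genes over the whole table (0.0218%), and adjusted p ran from 0.940 to 0.997. At an unadjusted p under 0.05 there were 2 members, Hspa1a and Hspa1b, which is 5.26% of the set against 5.2% of all genes (2.98% higher and 2.22% lower). DESeq2 and limma voom also called 0 members. Each gave 2 at an unadjusted p under 0.05, against 368 genes in DESeq2 and 711 in limma voom over the whole table. In edgeR, library totals alone, no filter and the replicate block each gave 3, the third being Hspb1. Over all genes these settings gave 725, 960 and 609. With single libraries left out there were 1 or 2 members, against 518 to 846 genes over the whole table. They were not always the same members. Without BSA replicate 3 and without rhMG53 replicate 1 the only member was Hspb1, with neither Hspa1a nor Hspa1b under 0.05. Without BSA replicate 2 it was Hspa1a, and without rhMG53 replicate 2 Dnaja1 stood with Hspa1a in place of Hspa1b. Groups did not overlap for 2 members (5.26%), Dnaja1 and Dnajb6, both with rhMG53 below BSA, against 10.8% of all genes (5.94% with rhMG53 above and 4.83% with rhMG53 below). The shares of the main fit are near or below the background.

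Measured against variation among these 6 libraries, which may be technical, the intervals of most members were narrow. They do not bound differences over animals or cultures, whose part in the libraries is not stated. For 35 of 38 members the 95% interval of the fold change lay between 20% lower and 25% higher, the exceptions being Hspa1a, Hspa1b and Hspb1. The median size of the log2 fold change was 0.033 for the members, 0.075 for all tested genes and 0.054 for the 8252 genes at or above the level of the lowest member. Those 8252 genes were not matched to the members by level. Their median was 42.3 CPM against 143 CPM for the members, and their median SE 0.0776 against 0.063. The part of level in these sizes was not tested. Values were positive for 15 members and negative for 23, with a median of -0.012 against 0.0014 over all genes. That split was 14 to 24 with upper quartile factors. It turned to 20 to 18 when libraries were scaled by their totals alone, which also moved the median of all genes by 0.014. Without rhMG53 replicate 1 it was 19 to 19, and in all other alternatives negative values were the more frequent. The sum of all 38 was 11633, 12115 and 11738 CPM in BSA replicates 1 to 3 and 11636, 12171 and 11706 CPM in rhMG53 replicates 1 to 3, a log2 ratio of means of 0.0011.

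**Figure D2:**
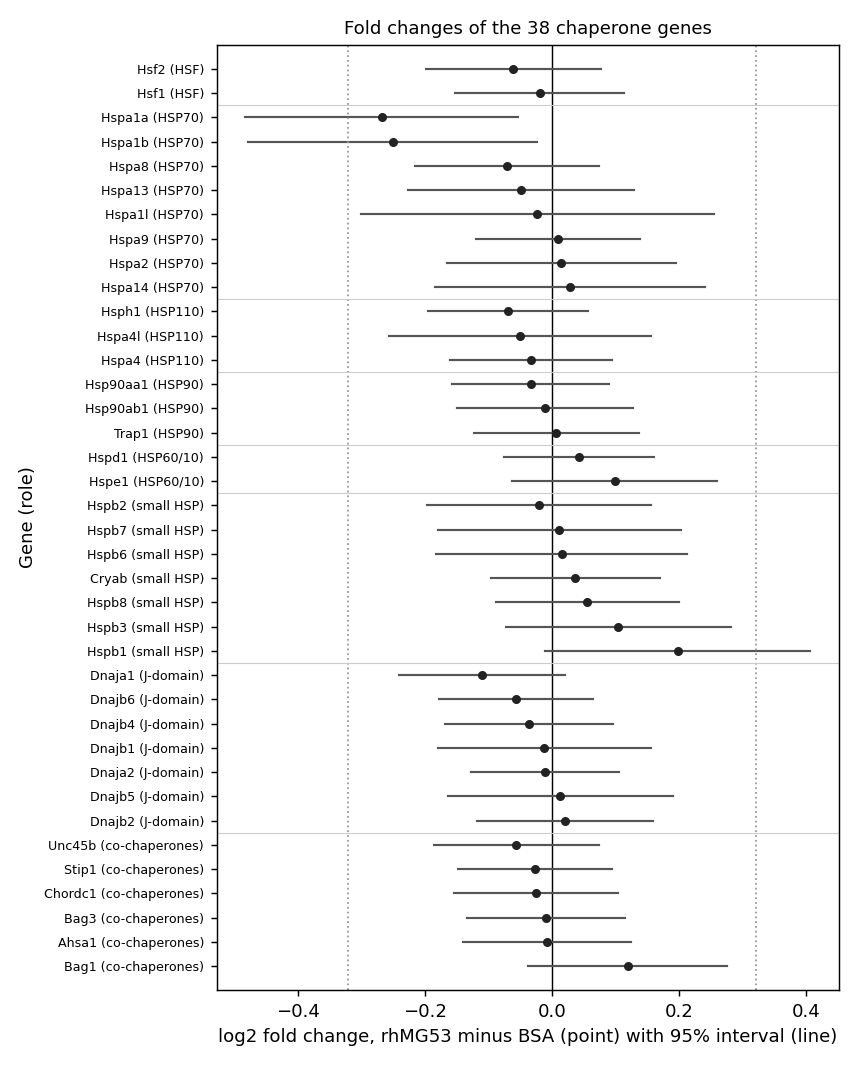
Log2 fold change, rhMG53 over BSA, of each of the 38 genes with its 95% interval from edgeR's quasi-likelihood test, grouped by role, with dotted lines at 20% lower and 25% higher. Intervals of 36 genes span 0, and those of Hspa1a and Hspa1b lie below it, with adjusted p of 0.940 and 0.946.

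The heat shock transcription factor genes differed little between groups. Hsf1, the master activator of the response (chromosome 15, 76477362 to 76501155), was at 57.4, 60.0 and 59.8 CPM with BSA and 56.1, 60.4 and 58.2 CPM with rhMG53. The groups overlapped, and the log2 fold change was -0.020 (95% interval -0.15 to 0.11). Hsf2, a related factor, was at 58.2 to 62.7 CPM with BSA and 56.0 to 59.8 CPM with rhMG53 (-0.062, interval -0.20 to 0.076). HSF1 acts through its phosphorylation and assembly into trimers, which RNA levels do not measure.

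The stress-inducible HSP70 pair had the most negative values of the set, at low levels. Hspa1a (gene ID 193740, chromosome 17, 34969359 to 34972156, minus strand) was at 23.8, 22.6 and 26.3 CPM in BSA replicates 1 to 3 and at 18.1, 19.7 and 22.7 CPM in rhMG53 replicates 1 to 3. The highest rhMG53 library reached just above the lowest BSA library, so the groups overlapped. Its log2 fold change was -0.27 (SE 0.098, interval -0.48 to -0.053, unadjusted p = 0.0191, adjusted p = 0.940 in edgeR). The neighbouring copy Hspa1b (gene ID 15511, 34956429 to 34959238) was at 30.7, 31.5 and 32.5 CPM with BSA and 22.9, 25.5 and 31.3 CPM with rhMG53. Here rhMG53 replicate 3 lay within the BSA range, and the other two rhMG53 libraries lay below it. Its log2 fold change was -0.25 (SE 0.10, interval -0.48 to -0.024, unadjusted p = 0.0334, adjusted p = 0.946 in edgeR). Without rhMG53 replicate 1 it was -0.15, and without rhMG53 replicate 3 it was -0.39.

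Because the copies share much of their sequence, and the counting of reads that fit both is not given, their counts were also summed before the fit. The sum was 54.5, 54.0 and 58.8 CPM with BSA and 40.9, 45.2 and 53.9 CPM with rhMG53. All 3 rhMG53 libraries were then below all 3 BSA libraries, the closest pair being 53.9 and 54.0 CPM. With library totals alone rhMG53 replicate 3, at 53.6 CPM, lay just above BSA replicate 2, at 53.5 CPM. The log2 fold change of the sum was -0.26 (SE 0.094, interval -0.46 to -0.051) with an adjusted p of 0.940 in edgeR. The ratio of Hspa1b to Hspa1a per kilobase was 1.38 ± 0.0828 with BSA and 1.39 ± 0.0630 with rhMG53 (SD, n = 3 each).

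**Figure D3:**
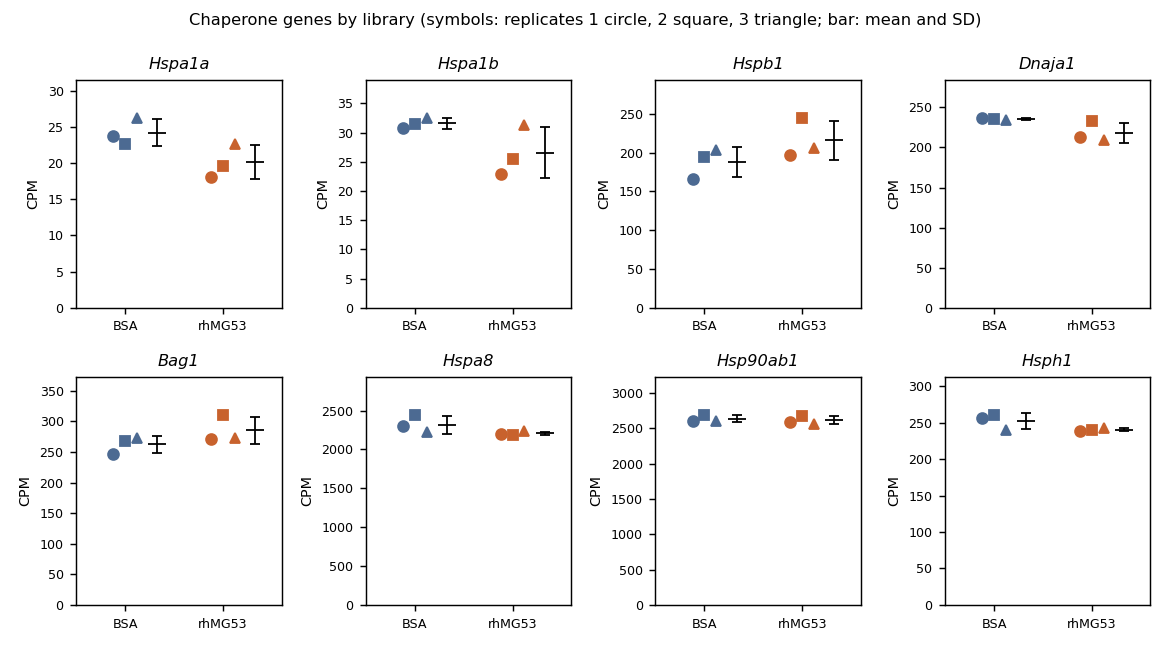
CPM of single genes in each of the 6 libraries, 1 panel per gene with its own axis, symbols for libraries (circle, square and triangle for replicates 1 to 3) and a bar for the mean and SD of each group. In Hspa1a and Hspa1b 1 rhMG53 library reaches the BSA range, and in Dnaja1 the 3 rhMG53 libraries, from 209.6 to 232.6 CPM, lie below the 3 BSA libraries.

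The other HSP70 genes did not share those values. Hspa8, which folds new proteins and takes part in chaperone-mediated autophagy (chromosome 9, 40801276 to 40805202), was at 2296, 2446 and 2219 CPM with BSA and 2201, 2191 and 2232 CPM with rhMG53. The groups overlapped through BSA replicate 3, with a log2 fold change of -0.071 (interval -0.22 to 0.074). Hspa9, the mitochondrial HSP70 (mortalin), was at 634.3 to 675.0 CPM with BSA and 648.4 to 670.7 CPM with rhMG53 (0.0097, interval -0.12 to 0.14). Hspa1l, Hspa2, Hspa13 and Hspa14 stood between 10.4 and 43.3 CPM in every library, with log2 fold changes from -0.049 to 0.028. Hspa1l, the member with the fewest counts, had the largest SE of the set, 0.126 on the log2 scale. Of the 8 HSP70 genes, 3 values were positive and 5 negative, with a median of -0.036.

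The 3 HSP110 genes, nucleotide exchange factors that reset HSP70, all had negative values with overlapping groups. Hsph1 (HSP105), the heat-inducible one, was at 256.1, 260.8 and 239.9 CPM with BSA and 239.1, 239.4 and 243.0 CPM with rhMG53. BSA replicate 3 lay among the rhMG53 libraries, and the log2 fold change was -0.069 (SE 0.057, interval -0.19 to 0.057, adjusted p = 0.979 in edgeR). Hspa4, the constitutive paralog, was at 455.1 to 480.0 CPM with BSA and 447.7 to 474.3 CPM with rhMG53 (-0.033). Hspa4l was at 74.7 to 88.0 and 69.4 to 88.0 CPM (-0.051), a sign that turned when the trend with length and GC content was removed (0.0069).

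The HSP90 genes had the smallest median size of log2 fold change of the 8 roles, 0.011. Hsp90ab1 (chromosome 17, 45567778 to 45573261) was at 2604, 2690 and 2602 CPM with BSA and 2592, 2678 and 2565 CPM with rhMG53, with a log2 fold change of -0.011 (interval -0.15 to 0.13). Hsp90aa1, its stress-inducible paralog, was at 404.8, 392.6 and 382.6 CPM and 380.8, 381.6 and 390.2 CPM (-0.034, interval -0.16 to 0.089). In both genes the groups overlapped. Trap1, the mitochondrial HSP90, was at 93.4 to 99.9 CPM with BSA and 93.8 to 99.5 CPM with rhMG53 (0.0068). The signs of Hsp90ab1 and Trap1 turned under other scalings. HSP90 genes took 26.3% of all member counts in either group, and Hsp90ab1 with Hspa8 took 40.7% to 42.0% in each library.

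The mitochondrial chaperonin genes Hspd1 (HSP60) and Hspe1 (HSP10), which form the folding chamber and its lid and lie head to head on chromosome 1, both had positive values. Hspd1 was at 223.8, 220.6 and 221.9 CPM with BSA and 231.9, 231.2 and 223.3 CPM with rhMG53. The groups touched only through BSA replicate 1 and rhMG53 replicate 3, and the log2 fold change was 0.043 (interval -0.075 to 0.16). Hspe1 was at 54.0, 56.0 and 57.9 CPM and 57.7, 65.9 and 56.1 CPM (0.098, SE 0.074, interval -0.064 to 0.26, adjusted p = 0.973 in edgeR). Its highest value was that of rhMG53 replicate 2, without which the log2 fold change was 0.025. Per kilobase, Hspd1 exceeded Hspe1 by 2.22 ± 0.0877 times with BSA and 2.14 ± 0.159 times with rhMG53 (SD, n = 3 each). With transcript length the ratio was 1.27 ± 0.0502 and 1.22 ± 0.0907.

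Small heat shock proteins, which hold unfolding proteins without using ATP, had 6 positive values and 1 negative. Their median log2 fold change was 0.037, and 0 of 7 were called. Without BSA replicate 1 the split was 4 to 3 with a median of 0.0083, and without rhMG53 replicate 3 it was 4 to 3 with 0.023. Medians were 0.073, 0.066 and 0.058 without BSA replicate 2, BSA replicate 3 and rhMG53 replicate 1. With the trend on length and GC content removed, described with the length values, the split was 5 to 2 with a median of 0.0050. Hspb1 (HSP25 in the mouse; chromosome 5, 135887919 to 135889563) was at 166.5, 194.8 and 203.5 CPM with BSA and 197.2, 244.9 and 205.7 CPM with rhMG53. BSA replicate 1 was the lowest library and rhMG53 replicate 2 the highest, and the groups overlapped between them. The log2 fold change was 0.20 (SE 0.095, interval -0.010 to 0.41, unadjusted p = 0.0604, adjusted p = 0.950 in edgeR), the most positive of the 38. Without rhMG53 replicate 2 it was 0.098, and without BSA replicate 1 it was 0.12. Hspb3, a muscle-restricted member, was at 47.4, 51.4 and 55.7 CPM and 50.4, 57.8 and 57.8 CPM (0.10, interval -0.073 to 0.28). BSA replicate 1 was again the lowest library and the groups overlapped. Without it the log2 fold change was 0.049, and it ran up to 0.17 without rhMG53 replicate 1.

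Cryab and Hspb8, the most abundant small heat shock proteins, had a within-group coefficient of variation of 3.39% and 4.89%, against 11.2% for Hspb1 and 7.86% to 9.6% for the other four. Cryab was at 598.8, 656.1 and 619.6 CPM with BSA and 633.4, 638.4 and 650.9 CPM with rhMG53, with the highest value in BSA replicate 2 (0.037, interval -0.096 to 0.17). Hspb8 was at 615.4 to 681.6 CPM and 641.3 to 702.9 CPM (0.055). Hspb7, expressed in heart and skeletal muscle, was at 440.0 to 543.6 CPM and 477.1 to 545.1 CPM (0.011), and Hspb2 at 130.1 to 155.0 CPM and 128.3 to 150.5 CPM (-0.021). Hspb6 (HSP20) was at 39.6 to 46.6 CPM and 39.2 to 47.4 CPM (0.015). Together the 7 genes took 18.5% of member counts with BSA and 19.3% with rhMG53.

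The J-domain genes included the members whose groups did not overlap. Dnaja1, a farnesylated partner of HSC70 (chromosome 4, 40722468 to 40734965), was at 237.0, 235.6 and 234.5 CPM with BSA and 212.9, 232.6 and 209.6 CPM with rhMG53. All rhMG53 libraries were lower, rhMG53 replicate 2 by a small margin. The log2 fold change was -0.11 (SE 0.060, interval -0.24 to 0.021, unadjusted p = 0.0916, adjusted p = 0.965 in edgeR). Dnajb6, a muscle Z-disc chaperone that suppresses aggregation (chromosome 5, 29735898 to 29786478), was at 220.7, 213.5 and 214.0 CPM and 210.3, 211.9 and 201.0 CPM. The highest rhMG53 library stood just under the lowest BSA library, and the log2 fold change was -0.057 (SE 0.055, interval -0.18 to 0.064). Scaled by library totals alone, as in the values per kilobase, the groups of both genes overlapped, through rhMG53 replicate 2 at 27.5 against 27.0 to 27.4 CPM per kilobase in Dnaja1 and at 35.7 against 34.9 to 36.3 in Dnajb6. Dnajb1 (HSP40), the inducible J-domain gene, was at 32.8, 30.0 and 30.0 CPM and 30.5, 32.9 and 28.7 CPM (-0.012, interval -0.18 to 0.16), with full overlap. Dnaja2, Dnajb2, Dnajb4 and Dnajb5 had log2 fold changes from -0.036 to 0.021. Of the 7 genes 2 values were positive and 5 negative, a split that was 4 to 3 with library totals alone.

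Among the other co-chaperones Bag1 had the largest value. Bag1, a nucleotide exchange factor that links HSP70 to the proteasome (chromosome 4, 40936398 to 40948294), was at 246.7, 268.1 and 273.1 CPM with BSA and 271.4, 310.8 and 273.3 CPM with rhMG53. The groups overlapped, rhMG53 replicate 2 standing highest and BSA replicate 1 lowest. The log2 fold change was 0.12 (SE 0.071, interval -0.037 to 0.28, adjusted p = 0.965 in edgeR), and 0.053 without rhMG53 replicate 2. Bag3, which pairs HSP70 with HSPB8 in the disposal of damaged filamin and is a target of HSF1, was at 157.9, 166.6 and 164.5 CPM and 161.0, 157.1 and 167.6 CPM (-0.0095, interval -0.13 to 0.12). Unc45b, the myosin chaperone, was at 235.0, 252.0 and 240.3 CPM and 237.1, 222.6 and 239.8 CPM (-0.056, interval -0.19 to 0.074). In both genes the groups overlapped. Stip1 (HOP, which hands clients from HSP70 to HSP90), Ahsa1 (AHA1, the activator of the HSP90 ATPase) and Chordc1 had log2 fold changes from -0.027 to -0.0077. Of these 6 genes 1 value was positive and 5 negative, and 3 and 3 with library totals alone.

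Libraries of the same group also differed among themselves, and in some the deviation of a member went with its transcript length. Each library's deviation is its log2 CPM minus the gene's mean over the 6 libraries. Over the 38 members, Pearson's r between the deviation and log2 transcript length was 0.66 in BSA replicate 1, 0.30 and -0.14 in BSA replicates 2 and 3, and 0.17, -0.62 and -0.23 in rhMG53 replicates 1 to 3. The points share libraries and depth, so no p is given. The 10 shortest members, among them Hspb1, Hspb3, Hspe1, Cryab and Bag1, had a median deviation of -0.11 in BSA replicate 1 and 0.093 in rhMG53 replicate 2, and the 10 longest 0.045 and -0.035. The same held over tested genes that averaged 5 CPM or more, where the 1300 under 1500 bases had medians of -0.056 and 0.12 in these libraries and the 2343 over 5000 bases 0.087 and -0.14.

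**Figure D4:**
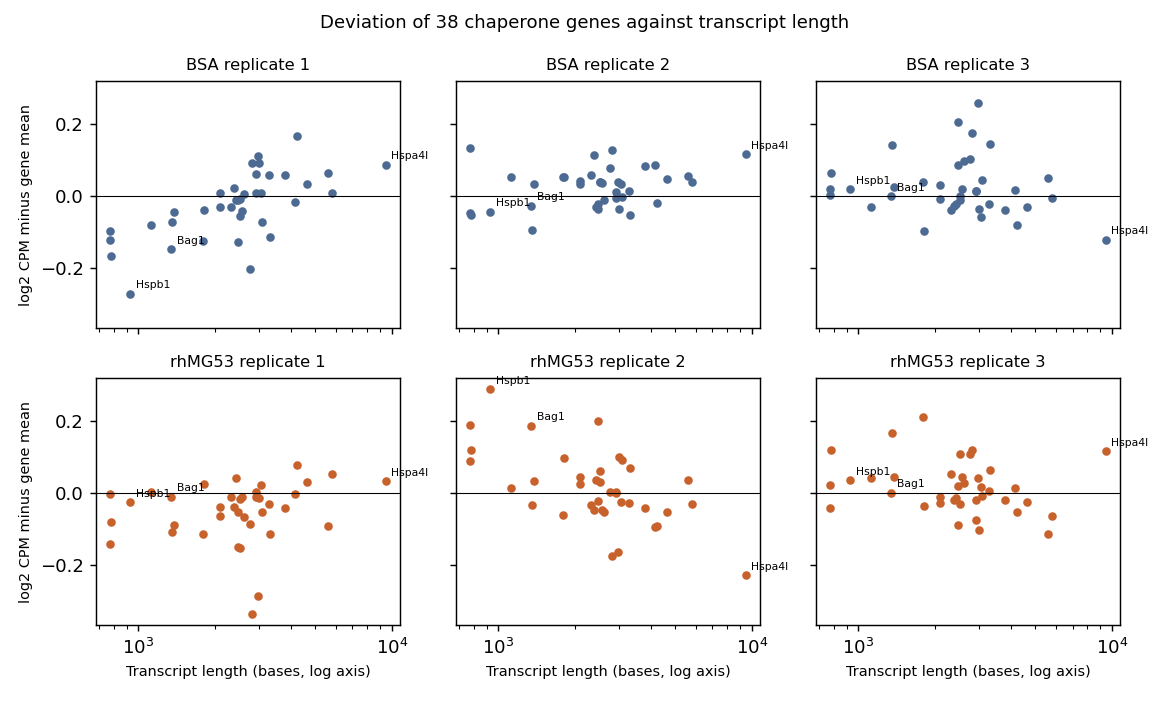
Deviation of each member in each library (log2 CPM minus the gene's mean over 6 libraries) against transcript length in bases (log axis), 1 panel per library. The cloud tilts upward in BSA replicate 1 (r = 0.66) and downward in rhMG53 replicate 2 (r = -0.62).

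The members with positive values of 0.098 or more, Hspb1, Bag1, Hspb3 and Hspe1, are all among the 10 shortest. The rest of the 10 shortest were negative in Hspb2 (-0.021) and Ahsa1 (-0.0077). They were positive in Hspb6 (0.015), Hspa14 (0.028), Cryab (0.037) and Hspb8 (0.055). With a trend on length and GC content removed from each library, an alternative chosen after seeing the data, the log2 fold change was 0.11 for Hspb1, 0.089 for Bag1, 0.074 for Hspb3 and 0.065 for Hspe1, and -0.073 for Dnaja1. It was 0.0050 for Cryab and -0.093 for Hspb2, and for Hspa1a and Hspa1b it was -0.28 and -0.26. Over the 38 members 15 values were positive and 23 negative, with a median of -0.017, and 0 were called. By library, 13 members had their lowest value in rhMG53 replicate 1 and 9 in BSA replicate 1, while 11 had their highest in BSA replicate 2 and 8 in rhMG53 replicate 2.

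**Figure D5:**
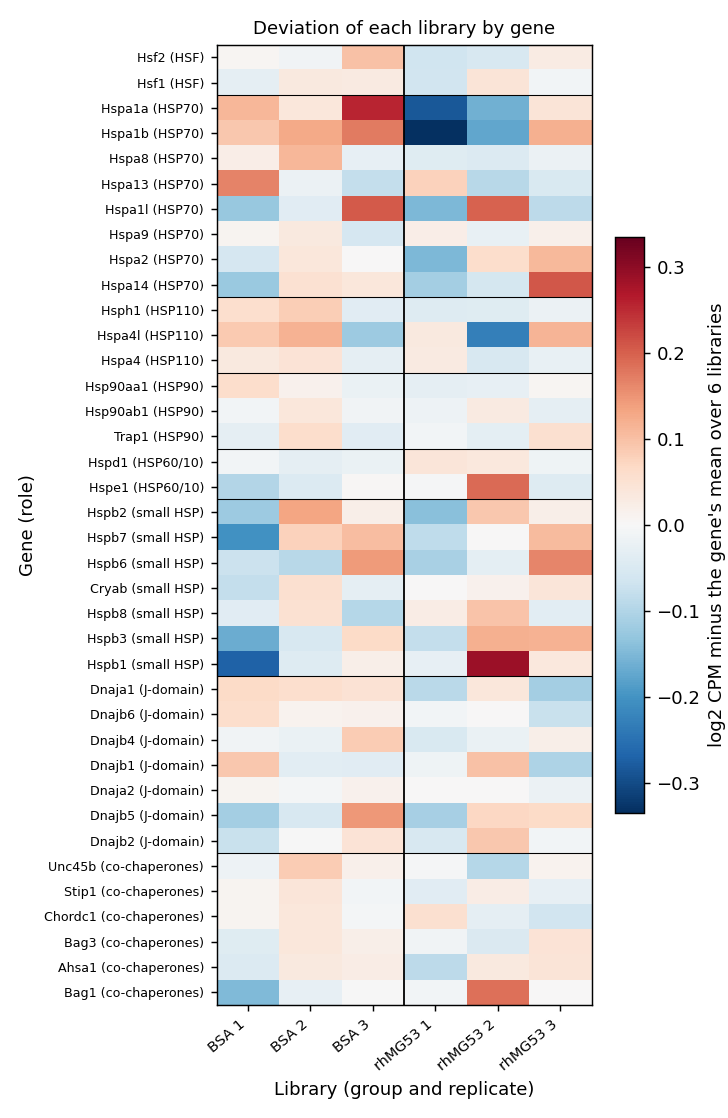
Heat map of the deviation of each member (rows, grouped by role) in each of the 6 libraries (columns), on the log2 scale. Hspa1a and Hspa1b are below their means in rhMG53 replicates 1 and 2, and Hspb1 is lowest in BSA replicate 1 and highest in rhMG53 replicate 2.

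Genes of the wider chaperone network, taken as lists by name with earlier results of these data known, also held no called gene. Of 108 such genes 100 were kept, 0 were called, and 58 values were positive and 42 negative, with a median log2 fold change of 0.018. At an unadjusted p under 0.05 there were 3 (3% against 5.2% of all genes), Sqstm1, Ptges3 and Dnajc18. Groups did not overlap for 7 (7% against 10.8% of all genes), with rhMG53 above in 6 (against 5.94% of all genes) and below in 1 (against 4.83%). The chaperonin TRiC, which folds actin and tubulin, had 2 positive and 6 negative values among 8 kept genes, led by Tcp1 (-0.032) and Cct8 (-0.025). Chaperones of the endoplasmic reticulum had 12 positive and 3 negative values with a median of 0.031, led by Manf (0.094) and Sdf2l1 (0.19). Mitochondrial chaperones and proteases had 7 and 2, led by Hscb (0.27) and Dnaja3 (0.090).

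Sqstm1, the autophagy receptor p62 listed with the BAG3 pathway, had the smallest p of the wider network. It was at 468.0, 467.9 and 486.1 CPM with BSA and 576.6, 573.0 and 520.3 CPM with rhMG53, with all rhMG53 libraries higher (0.23, SE 0.063, interval 0.094 to 0.37, adjusted p = 0.935 in edgeR). Its partners Bag3 (-0.0095) and Hspb8 (0.055) had smaller values, as given above. Ptges3 (p23), which closes the HSP90 cycle, was at 51.8, 47.7 and 50.4 CPM and 55.4, 57.1 and 59.9 CPM (0.20, SE 0.064, interval 0.060 to 0.34, adjusted p = 0.935 in edgeR), again with no overlap. Hsp90ab1 and Hsp90aa1, the proteins it binds, had values of -0.011 and -0.034. Dnajc18 had a log2 fold change of -0.16 and Dnajc25 one of 0.15. Of the remaining lists, Stub1 (CHIP, the ubiquitin ligase of HSP70 clients) was at 0.14, Bag5 at -0.079, Cdc37l1 at -0.12, Pfdn5 at 0.074, Pfdn2 at 0.019, Hspb11 at 0.22 and Hspa12a at -0.052. None of them passed.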

How the data were processed

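RNA from 6 libraries was extracted with TRIzol, selected for poly(A) and made into libraries with a directional low-input kit, per the labels' protocols. The deposited table gives raw counts as whole numbers for each library, with genes named by NCBI ID. The tools named are STAR, featureCounts and edgeR with build mm10, per the submitters' processing notes. For versions, annotation, strand setting and multi-mapped reads: not given in the sources used here. No sample column was left unused. The RefSeq table of GRCm38.p6 named 25275 of 27179 IDs. The 1904 unnamed ones held 0.541% to 1.30% of a library's counts and stayed in the tests.

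The comparison used the quasi-likelihood F test of edgeR 4.0.16 (R 4.3.3), 2-sided, with TMM factors, filterByExpr (minimum count 10, minimum total 15) and treatment as the only term. Benjamini-Hochberg adjustment ran over all 13769 kept genes, and an adjusted p under 0.05 counted as called. Intervals are 95%. The biological coefficient of variation was 7.89%. CPM of single genes use TMM-scaled library sizes, and sums and values per kilobase use plain totals. Exon and transcript lengths and shared 75-base stretches come from GENCODE M21. Members were read from the fit of all genes, so no p was adjusted over the list. Members, lists and the rule for genes given in every library were chosen with earlier results of these data known. That rule was a panel of 14 members, the 8 members of smallest p, members whose groups do not overlap and the 2 genes of smallest p in each other list. Replicates of a group differed by more than counting noise. Alternatives were other scalings, no filter, a stricter filter (mean of 5 CPM or more), limma 3.58.1 (voom), DESeq2 1.42.0, robust moderation, a replicate block, leaving out each library, and a loess trend (span 0.5) on length and GC content removed. Values per kilobase were also computed with the longest coding transcript.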

Additional observations from a re-analysis of the deposited data

How the results depend on the processing

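No member was called under any alternative run, and of 610 single-gene values 564 kept their direction, with a lowest adjusted p of 0.491 (Hspa1a with the trend on length and GC content removed). The direction stood in all alternatives for 19 members and turned in at least 1 for 19. With library totals alone the log2 fold change was 0.0038 for Hsp90ab1, 0.0036 for Dnaja2, 0.0028 for Dnajb1, 0.0048 for Bag3 and 0.0071 for Ahsa1. With upper quartile factors it was -0.00079 for Trap1. With the trend removed, chosen after seeing the data, it was 0.0069 for Hspa4l, -0.015 for Hspb6, 0.028 for Chordc1 and -0.0021 for Trap1. The cause was not tested. With single libraries left out, the log2 fold change of members whose sign turned was Hsf1 -0.047 to 0.0065, Hspa1l -0.14 to 0.077, Hspa2 -0.039 to 0.090, Hspa4l -0.12 to 0.043, Hspa9 -0.016 to 0.029 and Hspa13 -0.10 to 0.030. It was Hspa14 -0.078 to 0.091, Hsp90ab1 -0.030 to 0.0049, Hspb2 -0.083 to 0.042, Hspb6 -0.069 to 0.092, Hspb7 -0.078 to 0.066 and Dnajb1 -0.066 to 0.034. For the rest it was Dnajb2 -0.020 to 0.051, Dnajb5 -0.039 to 0.093, Bag3 -0.037 to 0.012, Ahsa1 -0.034 to 0.033 and Trap1 -0.020 to 0.039. For Hspa1a it was -0.36 to -0.20 and for Hspa1b -0.39 to -0.15. The log2 ratio of the summed members was -0.019 to 0.019. Over all genes 3 were called, against 6 with no filter, 5 with DESeq2, 5 with the trend removed, 0 with the replicate block and 0 to 4 with single libraries left out (0 without BSA replicate 2). The replicate numbers share no stated source, and deviations of same-numbered libraries correlated at 0.19, -0.13 and -0.15, so they were not treated as pairs. With the block 0 members were called too, and not every library correlated best with its own number. Other scalings moved the median of all genes by at most 0.014 on the log2 scale. The fewest counts were those of Hspa1l (188 to 244 in a library), Hspa1a (358 to 538), Hspa14 (430 to 507) and Hspa1b (453 to 695), and the part of depth in their spread was not tested. With single libraries left out, the split of positive to negative members ran from 10 to 28 without BSA replicate 1 to 19 to 19 without rhMG53 replicate 1. It was 20 to 18 with library totals alone.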
